A study of Bos taurus with 24 samples.

Results

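The proteasome is the barrel-shaped protease complex that degrades ubiquitin-tagged proteins. Its core particle is a stack of alpha and beta rings, with the catalytic sites on the beta subunits and the gate formed by the alpha subunits. The regulatory particle caps the core and holds a ring of ATPases that unfold the substrate, ubiquitin receptors, and a lid that removes the ubiquitin chain. Dedicated chaperones build both particles, and degradation of cyclins and other regulators by the proteasome is a known step of meiosis in oocytes.

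Proteasome genes were taken from a table of RNA levels in bovine (Bos taurus) oocytes as every symbol that begins with PSMA to PSMG and a digit, together with POMP. The rule found 46 of the 11306 genes listed, and all 46 were over 0.1 FPKM in at least 1 library, as were 9526 of all genes. FPKM count fragments relative to library size and to gene length, which here followed the length of the listed locus, introns included. Levels of different genes are set side by side as a description, and do not compare transcript numbers. By their known roles, 17 members belong to the core particle, 17 to the regulatory particle, 7 are assembly factors and 4 are activators or the inhibitor of the core. PSMC3IP was left unclassed: it matches the rule by its symbol, but its protein is a recombination factor named for binding PSMC3. PSMA8, PSMB11, PSME3 and PSMG4 were not analysed here.

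The study asked how the summer season affects oocytes. GV (germinal vesicle, immature) and MII (metaphase II, mature) oocytes were collected in May, taken as spring, and in July, taken as summer, and each of the 4 groups held 6 libraries. Each library pooled 4 oocytes of 1 beef cow after the surrounding cumulus cells had been stripped off, and was prepared with the Smart-seq2 v4 and Nextera XT kits. The same group of cows was sampled in both months, and the oocytes of each cow were divided between the GV stage and culture. Libraries of different groups may therefore come from the same cow, and the groups were compared as unpaired. All MII oocytes had matured in culture and not in the cow, and May and July differ in more than temperature, so that effects of heat and of other seasonal factors cannot be told apart.

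All libraries had been scaled to the same total of 86768.1 to 86768.2 FPKM, so a value is a share of the messenger RNA captured, and fewer transcripts per oocyte and poorer capture cannot be told apart. Depth was estimated relative to the library May GV 1 from the spacing of low values, and lay between 0.542 and 1.06 in 19 of the 24 libraries. The exceptions were May GV 6 at 0.0565, May MII 6 at 0.149, July GV 2 at 0.393, July GV 3 at 2.19 and July GV 5 at 6.51. The oocyte markers, of which 13 of 15 were listed, summed to 838 to 2240 FPKM. The 19 cumulus and granulosa cell markers summed to 27.2 to 85.4 FPKM in 20 libraries, to 588 in May GV 6, 200 in May GV 3, 162 in May MII 6 and 124 in July GV 2. FSHR, a defining receptor of granulosa cells, had a median at the lowest listed value of 0.01 FPKM in all 4 groups, and STAR and KRT8 were the markers with the highest medians, 14.8 to 26.9 FPKM. Of 9 immune cell markers 4 were listed, and they summed to at most 0.478 FPKM. May GV 6, May MII 6 and July GV 2 also mapped poorly, and counts are therefore given with and without them. The part of cumulus RNA, depth and mapping in the results was not tested.

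Listed FPKM values of the subunits of this complex, which are built into it in equal numbers, were far from equal. In May GV oocytes, the alpha ring ranged from a mean of 0.365 ± 0.37 FPKM (SD, n = 6) for PSMA1 to 122 ± 20.3 for PSMA7, a ratio of 336, and the ratio of the highest to the lowest alpha subunit was 238 to 491 over the 4 groups. PSMA7 ranked between 61 and 103 among all genes by its group mean in FPKM. It alone made up 30% ± 5.02 of the summed FPKM of the core particle in May GV and 36.9% ± 5.86 in May MII oocytes. In the lid, PSMD13 stayed near the filter at means of 0.0889 to 0.104 FPKM. The highest lid subunit lay 78.8 to 184 times above it. The listed locus of PSMD13, chr11:107117098-107254956 on UMD3.1.1, overlaps the loci of 5 other listed genes, and the kits keep no strand, so its value is uncertain. PSMC3IP, PSMC4, PSMD1, PSMD9 and PSMG2 each overlap 1 other listed gene, so 6 members share this limit. The ATPases were more alike, with ratios of 7.39 in May GV, 8.77 in July GV, 2.64 in May MII and 2.5 in July MII oocytes. In GV oocytes PSMB7, PSMC6 and PSMD13 were the lowest of the beta ring, the ATPases and the lid. Each also had the longest locus of its set, at 57242, 24041 and 137859 bp. In the alpha ring PSMA7 had the shortest locus (5549 bp), but PSMA3 (25268 bp) and not PSMA1 (12885 bp) the longest. Where the spacing of low values could be found, it shrank in proportion to the length of the listed locus, introns included. In May GV 6, PSMF1 (39499 bp) at 0.355 FPKM stood 8 steps above the lowest value. PSMA1 (12885 bp) at 0.275 FPKM stood 2 steps above it. Ratios, ranks, sums and shares across genes therefore depend on intron length as well as on transcript number. How large that part is was not tested.

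**Figure D1:**
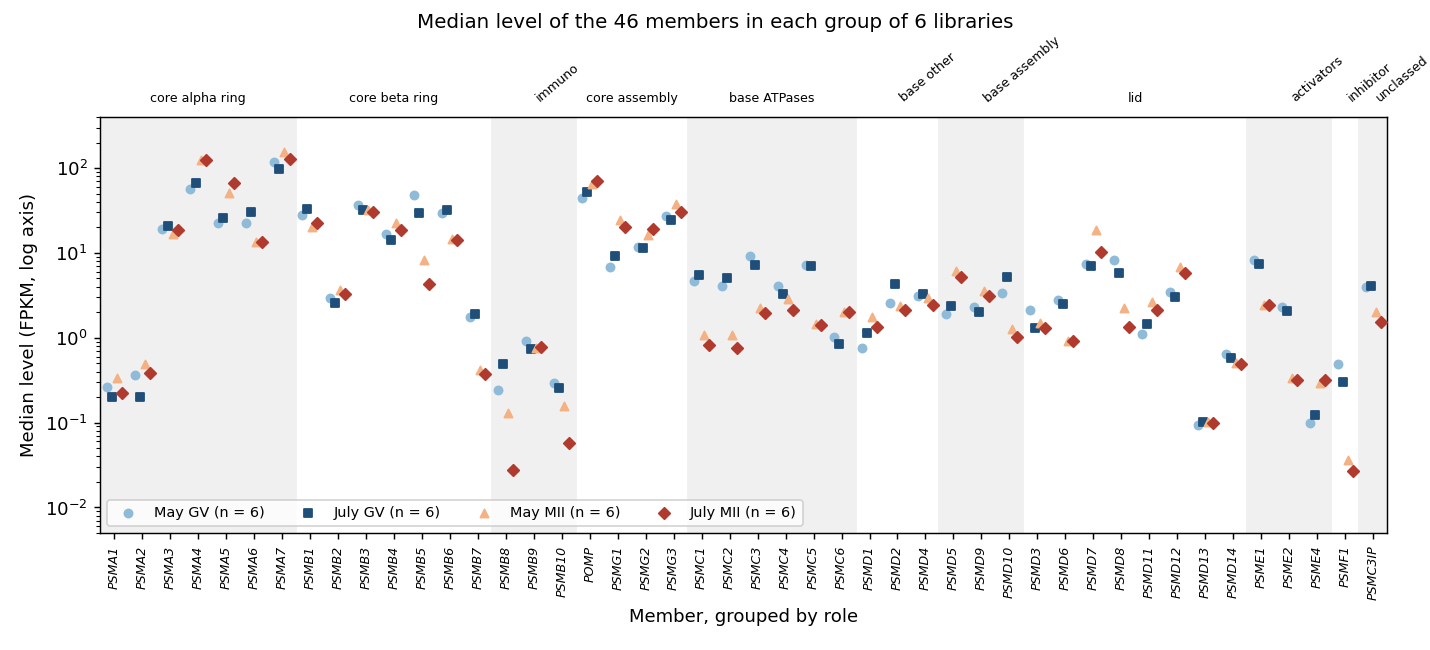
Median level in FPKM (log axis) of each of the 46 members over the 6 libraries of each group, with members in order of role along the horizontal axis. PSMA7, PSMA4 and POMP sit at the top of the plot and PSMF1, PSMB8, PSMB10 and PSMD13 at the bottom, and the GV and MII symbols lie apart for PSMB5, PSMB7 and most ATPases.

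Maturation was the comparison in which proteasome transcripts moved. A change was called where limma on log2(FPKM + 1) gave over 2-fold with an unadjusted p under 0.05. Between GV and MII oocytes in May, 3 members rose and 10 fell, so that 13 of 46 (28.3%) were called against 11.8% of all genes tested (3.57% higher, 8.25% lower). In July 2 rose and 12 fell, 14 of 46 (30.4%) against 11.5% (2.2% higher, 9.26% lower). The GV and MII libraries did not overlap for 13 members in May and 15 in July, against 13.6% and 17.7% of all genes. These backgrounds include many genes too low to be called. Among genes with a mean of at least 1 FPKM, the call was reached by 35.1% of 37 members against 30% of genes in May, and by 37.8% of 37 against 29.4% in July. The members' share was thus near that of genes past this cut, which were not matched to the members in level. At a Benjamini-Hochberg adjusted p under 0.05 (limma), 18 members passed in May (4 higher, 14 lower) against 24.2% of all genes, and 23 in July (6 higher, 17 lower) against 30.7%. The median log2 change of the members was -0.04 in May and -0.10 in July, beside -0.03 and -0.02 over all genes.

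The 2 months share no library but may share cows, so they are not independent repeats. In both months 11 members were called: PSMB5, PSMC1, PSMC2, PSMC3, PSMC5, PSMD8, PSMD10, PSME1 and PSME2 fell, and PSMA5 and PSMG1 rose. PSMB6 and PSMD7 were called in May alone, and PSMA6, PSMB7 and PSMC3IP in July alone, with the same sign in the other month each time. These 11 are 23.9% of the members, against 8.71% of all genes called in both months. Among genes with a mean of at least 1 FPKM over the 24 libraries the shares were 29.7% of 37 members and 22.3% of all. Of the 46 members 41 (89.1%) had the same sign in both months, against 85.5% of all genes. Without the 3 libraries of low mapping, 12 members were called in May (4 higher, 8 lower) and 13 in July (1 higher, 12 lower), and without May GV 3 as well 15 in May (6 higher, 9 lower). The shares of all genes called without these libraries are not given here. Quantile normalization shifted the balance of calls to 5 higher and 6 lower in May and to 4 higher and 8 lower in July. All genes shifted in the same direction, from 340 higher and 786 lower to 557 and 648 in May and from 210 and 882 to 494 and 673 in July. Median-of-ratios scaling gave 3 higher and 12 lower in May and 4 higher and 10 lower in July. Over all genes it gave 254 higher and 892 lower in May (12% called) and 300 and 812 in July (11.7%).

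**Figure D2:**
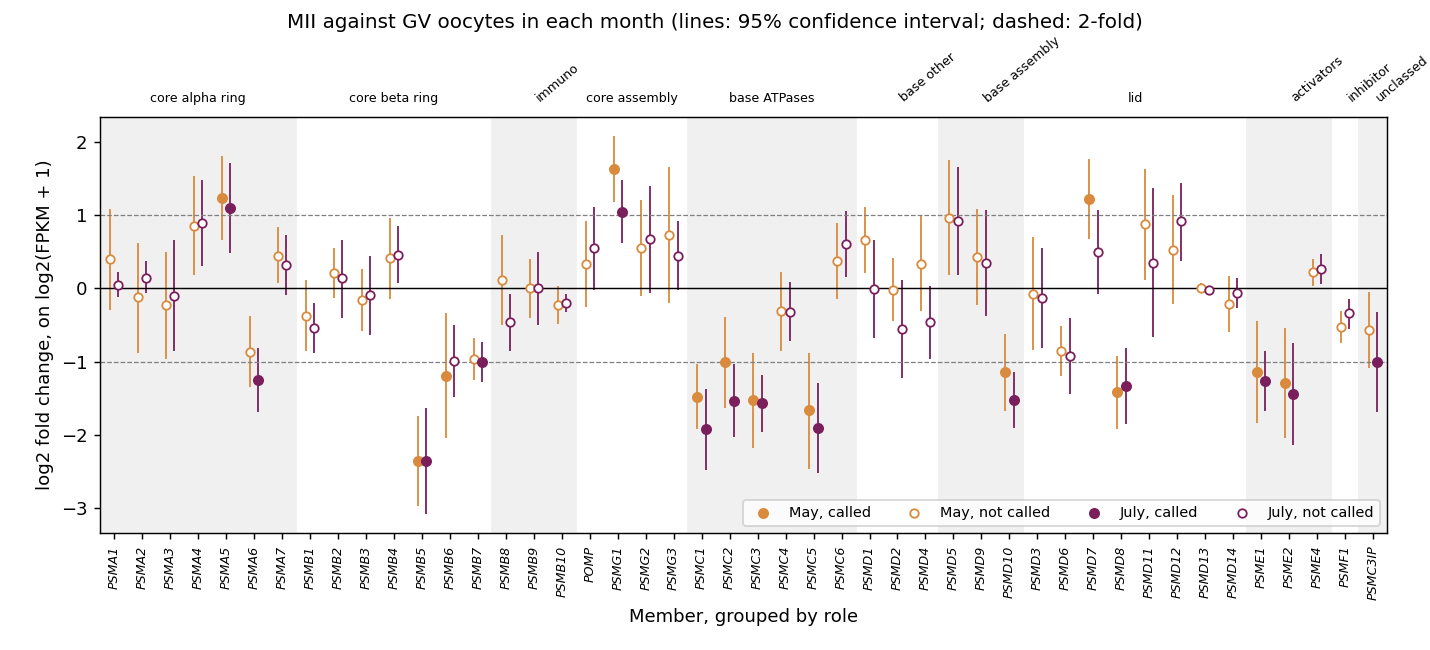
Log2 fold change of MII against GV oocytes for each member, on the log2(FPKM + 1) scale, in May and in July, with 95% confidence intervals; filled points were called. Most ATPases, PSMB5, PSMD8, PSMD10, PSME1 and PSME2 lie below zero in both months, while PSMA5 and PSMG1 lie above.

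The beta ring carries the catalytic sites, and 3 of its members are the constitutive proteases. PSMB5, the chymotrypsin-like subunit (chr10:21658161-21663681), had the largest fall of all members on the log2(FPKM + 1) scale, which compresses the changes of lower members. Its level ran from 26.7 to 68.9 FPKM (median 48.0) in May GV and from 18.1 to 41.8 (median 29.8) in July GV oocytes. In MII oocytes it ran from 4.25 to 12.1 (median 8.25) in May and from 1.86 to 9.41 (median 4.32) in July. Every MII library lay below every GV library of its month. The log2 fold change was -2.36 ± 0.29 (SE; limma adjusted p = 0.000188) in May and -2.36 ± 0.33 (adjusted p = 0.000232) in July, with an exact permutation p of 0.00216 in each, the smallest that 6 against 6 libraries allow. The group means differed 5.63-fold in May and 5.62-fold in July.

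PSMB6, the caspase-like subunit (chr19:27198592-27200806), ran from 25.4 to 36.5 FPKM (median 29.9) in May GV and from 2.34 to 22.3 (median 14.5) in May MII oocytes. It fell in May by 1.20 on the log2 scale (SE 0.40, limma adjusted p = 0.043), with no overlap of the groups. The lowest value was that of May MII 6, and without that library the log2 change was -0.80 and the call was lost. In July the levels were 16.2 to 38.2 (median 32.0) in GV and 10.6 to 20.9 (median 14.1) in MII oocytes, and the log2 change of -0.99 ± 0.23 (adjusted p = 0.006) fell just short of 2-fold. It passed 2-fold when any 1 of 5 libraries was left out, July GV 2 among them.

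PSMB7, the trypsin-like subunit (chr11:95401674-95458915), was the lowest of the beta ring in FPKM. Its level of 1.44 to 2.1 FPKM (median 1.78) in May GV went to 0.283 to 0.585 (median 0.42) in May MII oocytes, and 1.19 to 2.04 (median 1.9) in July GV went to 0.252 to 0.563 (median 0.37) in July MII oocytes. The groups did not overlap in either month. At so low a level the added 1 FPKM compresses the change: the means differed 4.21-fold in May and 4.57-fold in July, but the log2 change was -0.96 ± 0.13 (limma adjusted p = 0.000373) in May, not called, and -1.0 ± 0.13 (adjusted p = 0.000114) in July, just past 2-fold and called. Leaving out any 1 of 7 July libraries put it at -0.99 to -0.97, not called, and leaving out May GV 1 put May at -1.0, just past the threshold.

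The remaining beta subunits, PSMB1 to PSMB4, have no active site. None was called, and their log2 changes ran from -0.37 for PSMB1 to 0.42 for PSMB4 in May and from -0.54 to 0.46 for the same genes in July. PSMB1 alone of them passed the adjusted p in July (0.0195, limma), with no overlap of its 6 GV and 6 MII libraries.

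PSMB8, PSMB9 and PSMB10 take the places of PSMB5, PSMB6 and PSMB7 in the immunoproteasome, the form that immune signals induce. All 3 were near or under 1 FPKM in most libraries. PSMB9 had medians of 0.928 FPKM in May GV, 0.737 in July GV, 0.762 in May MII and 0.788 in July MII oocytes, with log2 changes of 0.00 in both months. PSMB10 had medians of 0.291, 0.254, 0.158 and 0.0568 FPKM in the same order, and a log2 change of -0.22 ± 0.12 in May and -0.20 ± 0.05 in July (limma adjusted p = 0.179 and 0.0148). For PSMB8 the medians were 0.241, 0.493, 0.129 and 0.0277 FPKM. The single high value of PSMB8, 2.88 FPKM, was that of May MII 6, and it set the sign of the May change, 0.11 with and -0.19 without that library. In July PSMB8 gave -0.46 ± 0.18 (limma adjusted p = 0.0672), with means of 0.538 FPKM in GV and 0.0738 in MII oocytes, a 7.29-fold difference. That ratio is uncertain, since July MII 4, July MII 5, July MII 6 and July GV 2 stood at the lowest listed value of 0.01 FPKM. July MII 3, at 0.298 FPKM, made up most of the MII mean. None of the 3 was called in either month.

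The alpha ring held 1 member called in both months, and it rose. PSMA5 (chr3:34126155-34147184) ran from 11.2 to 25.8 FPKM (median 22.8) in May GV and from 29.9 to 70.8 (median 50.7) in May MII oocytes. In July it ran from 14.0 to 36.2 (median 26.1) in GV and from 32.5 to 78.1 (median 66.1) in MII oocytes. The groups did not overlap in May and overlapped by a few FPKM in July. The log2 change was 1.24 ± 0.27 (limma adjusted p = 0.0057) in May and 1.10 ± 0.28 (adjusted p = 0.0107) in July, where it was 0.95 and not called without July GV 2. PSMA6 (chr21:45974822-45998594) went the other way, from 25.6 to 35.6 FPKM (median 30.7) in July GV to 6.95 to 15.6 (median 13.6) in July MII oocytes, with no overlap. It fell in July by 1.25 (SE 0.20, adjusted p = 0.000575), and the May change of -0.87 ± 0.23 (adjusted p = 0.0152) was under 2-fold, also with no overlap.

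PSMA7, the member with the highest FPKM means, ran from 95.9 to 156.0 FPKM (median 118.0) in May GV and from 142.0 to 203.0 (median 156.0) in May MII oocytes. The July levels were 90.2 to 166.0 (median 96.6) and 110.0 to 171.0 (median 128.0), and neither change was called, at 0.45 ± 0.18 and 0.32 ± 0.19 on the log2 scale. PSMA4 had log2 changes of 0.86 and 0.90 (limma adjusted p = 0.0624 and 0.0249). It passed 2-fold without May MII 6 in May (1.08) and without July MII 4 or July MII 6 in July (1.01 and 1.02). PSMA1, PSMA2 and PSMA3 were not called, with log2 changes between -0.23 and 0.40.

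**Figure D3:**
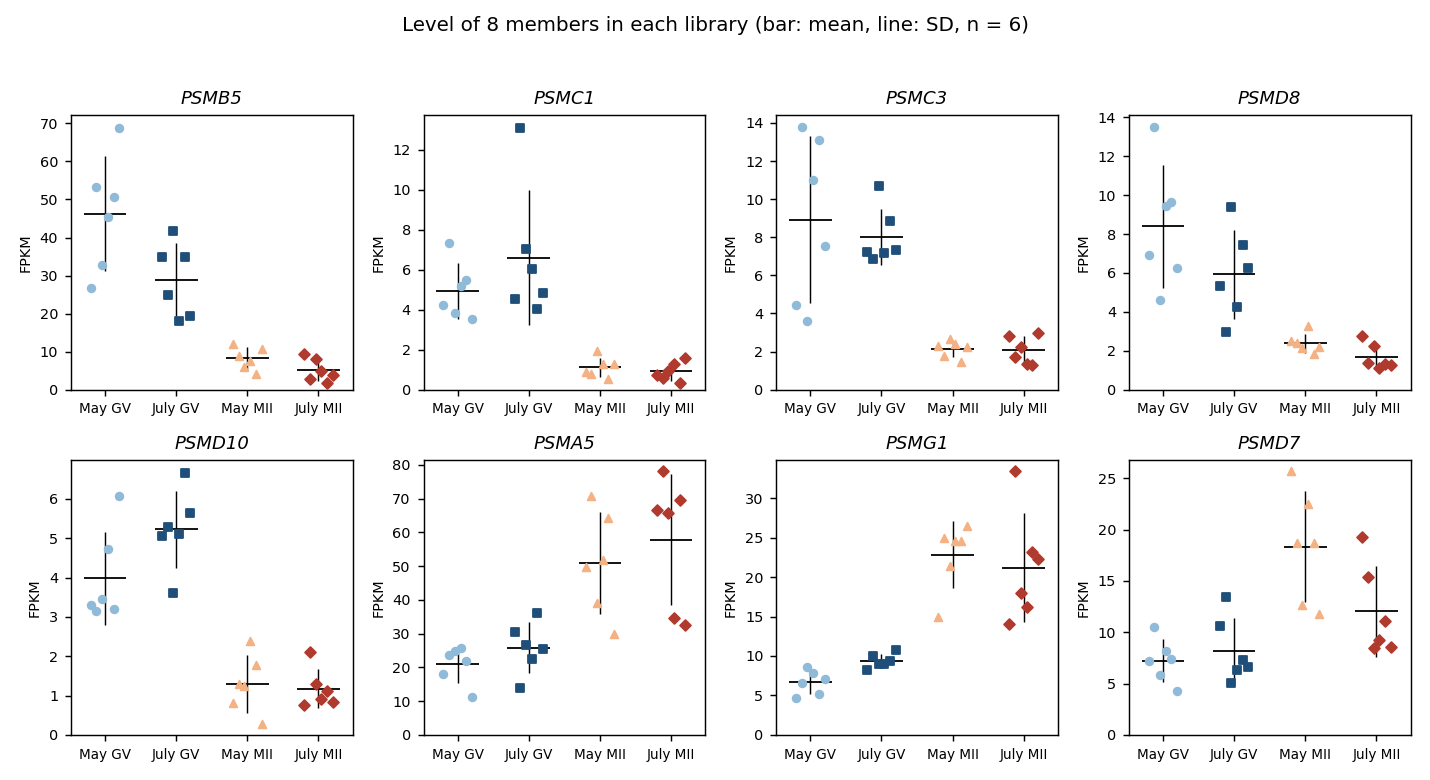
Level in FPKM of 8 members in each of the 24 libraries, by group; the bar is the mean and the vertical line the SD of 6 libraries. PSMB5, PSMC1, PSMC3, PSMD8 and PSMD10 are lower in MII than in GV oocytes in both months, PSMA5 and PSMG1 are higher, and PSMD7 is clearly apart in May and overlaps in July.

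The ATPases of the regulatory particle form the ring that unfolds the substrate, and 4 of the 6 fell in both months. Calls in both months in 1 direction were reached by 8.71% of all genes and by 22.3% of genes with a mean of at least 1 FPKM. With 6 genes, in a role chosen with earlier results known, the count is a description. PSMC1 (chr10:102920826-102933426) ran from 3.53 to 7.31 FPKM (median 4.69) in May GV and from 0.534 to 1.91 (median 1.07) in May MII oocytes. In July it ran from 4.04 to 13.1 (median 5.45) in GV and from 0.315 to 1.59 (median 0.827) in MII oocytes. No MII library reached a GV library of its month, and the log2 change was -1.48 ± 0.21 (limma adjusted p = 0.000451) in May and -1.93 ± 0.26 (adjusted p = 0.000166) in July. PSMC3 (chr15:78452430-78458543) ran from 3.63 to 13.8 (median 9.26) in May GV, 6.87 to 10.7 (median 7.27) in July GV, 1.48 to 2.67 (median 2.27) in May MII and 1.3 to 2.98 (median 1.97) in July MII oocytes. It too did not overlap between stages, with log2 changes of -1.53 ± 0.30 (adjusted p = 0.00332) and -1.57 ± 0.18 (adjusted p = 6.75e-05).

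PSMC5 changed by -1.67 in May and -1.91 in July on the log2 scale, and PSMC2 by -1.01 and -1.54. The May call of PSMC2 was lost, at -1.0 to -0.92, when any 1 of 7 libraries was left out. The ring was not uniform. PSMC4 gave -0.31 and -0.32 and was not called, and its locus overlaps that of FBL. PSMC6 gave 0.38 and 0.61, with a limma adjusted p of 0.0403 in July. The group means of the 6 ATPases thus ran from 1.21 to 8.91 FPKM in May GV and from 1.11 to 2.94 in May MII oocytes.

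Among the other base subunits are the scaffold proteins PSMD1 and PSMD2 and the ubiquitin receptor PSMD4, and none of the 3 was called. PSMD1 passed the adjusted p in May (0.66, limma adjusted p = 0.0363) and gave -0.01 in July. PSMD2 gave -0.02 and -0.56. PSMD4 ran from 0.932 to 4.09 FPKM (median 3.13) in May GV, 2.77 to 7.13 (median 3.24) in July GV, 2.11 to 6.75 (median 2.93) in May MII and 1.52 to 4.15 (median 2.45) in July MII oocytes. All 4 ranges overlapped, and the log2 change was 0.34 ± 0.30 in May and -0.46 ± 0.23 in July.

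Lid subunits moved in both directions. PSMD8 (chr18:48451832-48457823) ran from 4.61 to 13.5 FPKM (median 8.19) in May GV and from 1.81 to 3.29 (median 2.27) in May MII oocytes. The July levels were 2.96 to 9.38 (median 5.78) in GV and 1.11 to 2.78 (median 1.34) in MII oocytes. The stages did not overlap in either month, and PSMD8 fell by 1.42 (SE 0.23, limma adjusted p = 0.00111) in May and by 1.34 (SE 0.24, adjusted p = 0.00139) in July. PSMD7 (chr18:37108017-37115997), the partner of the deubiquitinase PSMD14, ran from 4.28 to 10.5 (median 7.32) in May GV and from 11.8 to 25.7 (median 18.7) in May MII oocytes. It rose in May by 1.22 (SE 0.25, adjusted p = 0.00448) with no overlap. In July it ran from 5.05 to 13.4 (median 6.95) in GV and from 8.46 to 19.3 (median 10.2) in MII oocytes, overlapped, and gave 0.50 ± 0.26 (adjusted p = 0.166).

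Of the other lid members, PSMD6 gave -0.86 and -0.92 and PSMD12 0.53 and 0.92. PSMD6 passed the adjusted p in both months and PSMD12 in July. Each passed 2-fold in July without July MII 6 (-1.04 and 1.04). PSMD3, PSMD11, PSMD13 and PSMD14 were not called and did not pass the adjusted p, with log2 changes from -0.21 to 0.88. PSMD14, the deubiquitinase itself, had means of 0.783 ± 0.556 FPKM in May GV, 0.56 ± 0.0556 in July GV, 0.491 ± 0.0651 in May MII and 0.501 ± 0.17 in July MII oocytes.

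Factors that assemble the core had positive changes, whereas the base chaperones were mixed. PSMG1 (chr1:140726627-140739237), which with PSMG2 starts the alpha ring, ran from 4.65 to 8.58 FPKM (median 6.8) in May GV and from 14.9 to 26.5 (median 24.6) in May MII oocytes. In July it ran from 8.18 to 10.7 (median 9.18) in GV and from 14.1 to 33.4 (median 20.2) in MII oocytes. Every MII library was above every GV library of its month, and PSMG1 rose by a log2 change of 1.64 ± 0.21 (limma adjusted p = 0.000245) in May and 1.05 ± 0.20 (adjusted p = 0.00168) in July. The July value was 0.91, under the threshold, without July MII 2. PSMG2 gave 0.55 ± 0.30 and 0.68 ± 0.34, with group medians of 11.4 to 19.2 FPKM, and PSMG3, which acts later on the same ring, gave 0.73 ± 0.43 and 0.45 ± 0.22, with medians of 24.2 to 37.6 FPKM. POMP, which guides the beta subunits into place, gave 0.34 ± 0.27 and 0.55 ± 0.26. None of these 3 passed the adjusted p (0.129 to 0.374, limma). POMP ran from 27.7 to 63.7 FPKM (median 43.9) in May GV, 23.1 to 62.5 (median 52.3) in July GV, 33.0 to 69.0 (median 64.9) in May MII and 41.2 to 91.8 (median 70.9) in July MII oocytes, with overlap in both months.

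PSMD10 (chrX:60966171-60973474), a chaperone of the base, fell. It ran from 3.15 to 6.08 FPKM (median 3.37) in May GV, 3.62 to 6.67 (median 5.19) in July GV, 0.275 to 2.38 (median 1.27) in May MII and 0.763 to 2.1 (median 1.02) in July MII oocytes. The stages did not overlap, with log2 changes of -1.15 ± 0.24 (limma adjusted p = 0.00519) and -1.53 ± 0.17 (adjusted p = 5.72e-05). Without May MII 6 the May value was -1.0, just under 2-fold, and the call was lost. The other chaperones of the base had positive values: PSMD5 gave 0.97 and 0.93 (adjusted p = 0.066 and 0.055) and PSMD9 gave 0.43 and 0.35.

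PSME1 and PSME2, neighbours on chromosome 10, encode the subunits of an activator that opens the core without ATP. PSME1 (chr10:20846749-20849411) ran from 4.26 to 12.8 FPKM (median 8.27) in May GV, 5.69 to 8.55 (median 7.48) in July GV, 1.75 to 8.26 (median 2.45) in May MII and 1.25 to 3.82 (median 2.44) in July MII oocytes. It overlapped in May, where May MII 6 was the highest MII library, and not in July, with log2 changes of -1.14 ± 0.32 (limma adjusted p = 0.0219) and -1.27 ± 0.19 (adjusted p = 0.00036). PSME2 (chr10:20838545-20841806) ran from 1.26 to 9.42 (median 2.28) in May GV, 1.29 to 9.41 (median 2.05) in July GV, 0.217 to 1.79 (median 0.332) in May MII and 0.0466 to 0.623 (median 0.319) in July MII oocytes. The log2 changes of PSME2 were -1.30 ± 0.35 (adjusted p = 0.0177) and -1.44 ± 0.32 (adjusted p = 0.00518). Its highest GV values were those of May GV 6 and July GV 2 and its highest MII value that of May MII 6, the libraries of low mapping, which were also 3 of the 4 with the highest sums of cumulus markers. Without May GV 6 the May change was -1.0, just under 2-fold, and no longer called. PSME4, another activator, went the other way at a low level, with means of 0.14 and 0.151 FPKM in May and July GV and 0.327 and 0.393 in May and July MII oocytes, a ratio of 2.33 in May and 2.61 in July. Its log2 changes of 0.22 ± 0.08 and 0.27 ± 0.09 (limma adjusted p = 0.0714 and 0.0464) were not called, and with no pseudocount they were 1.45 and 1.39. PSMF1, an inhibitor of the core, had means of 0.506 ± 0.259 FPKM in May GV and 0.0316 ± 0.0118 in May MII oocytes, a 16.0-fold difference. Being so low, it gave only -0.53 ± 0.10 on the log2(FPKM + 1) scale (adjusted p = 0.00269) and -0.34 ± 0.09 in July (adjusted p = 0.0153).

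PSMC3IP, the recombination factor, ran from 2.81 to 11.7 FPKM (median 4.11) in July GV and from 0.925 to 4.06 (median 1.53) in July MII oocytes, with overlap. It was called in July at -1.01 ± 0.32 (limma adjusted p = 0.0292). Without July GV 2, its highest library, the value was -0.77, and the call was lost without any 1 of 7 libraries. In May it gave -0.57.

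Summed over each class, the core particle overlapped between the stages, while the activators and inhibitor were lower in MII oocytes in all libraries but 1. The 17 core genes summed to 409 ± 21.8 FPKM (SD, n = 6) in May GV, 387 ± 31.1 in July GV, 461 ± 82 in May MII and 430 ± 82.4 in July MII oocytes, and the ranges overlapped. The 17 regulatory particle genes summed to 64 ± 17.7, 68.4 ± 19.5, 54.3 ± 6.65 and 44.5 ± 7.85 FPKM in the same order. They overlapped in May and not in July, where the GV libraries ran from 56.9 to 108 FPKM and the MII libraries from 34.4 to 53.9. The 7 assembly factors summed to 97.3 ± 21.8 and 103 ± 16.1 in GV and to 144 ± 25.7 and 155 ± 33.5 in MII oocytes of May and July. The 4 activator and inhibitor genes summed to 12.4 ± 5.81 and 10.8 ± 3.38 in GV and to 4.42 ± 3.14 and 3.25 ± 0.893 in MII oocytes. The last of these sums came mostly from PSME1 and PSME2, and the mean of PSME4 was above that of GV in MII oocytes. In these sums, and in shares of them, genes with short loci weigh more, and the sums were not tested. PSMB5 made up 11.2% ± 3.31 of the core sum in May GV and 1.85% ± 0.806 in May MII oocytes, and its share was 7.43% ± 2.28 in July GV and 1.18% ± 0.549 in July MII oocytes.

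**Figure D4:**
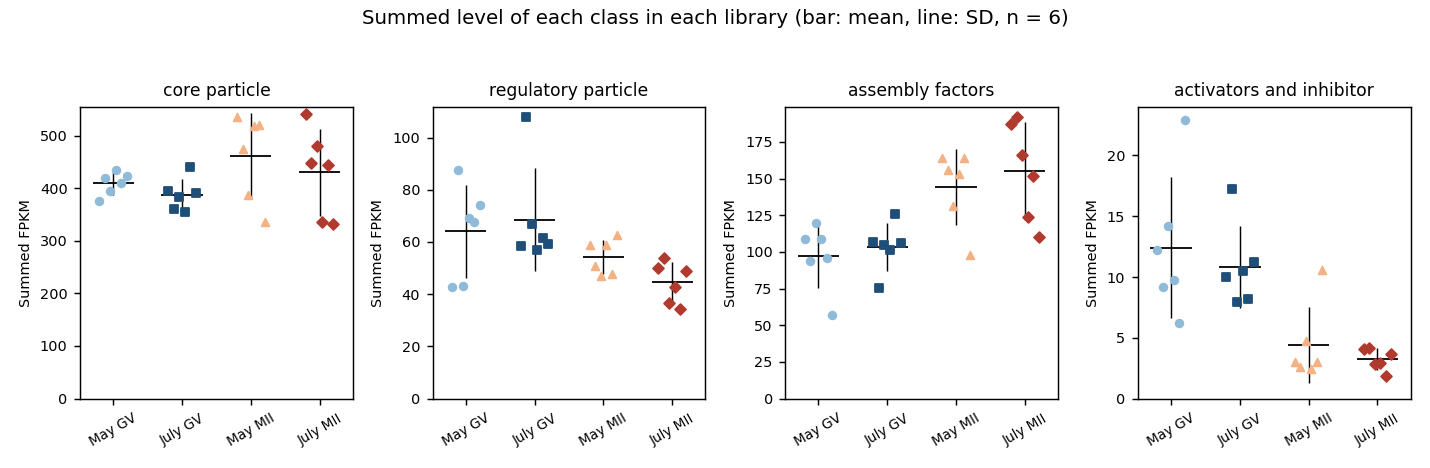
Summed FPKM of the members of each class in each of the 24 libraries, by group, with the mean (bar) and SD (line) of 6 libraries. The core particle sums overlap between stages, and the activators and inhibitor are lower in MII oocytes apart from May MII 6 at 10.6 FPKM.

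Ratios within a library are free of its scaling, and 5 pairs chosen after their values had been seen are given as a description. PSMA5 over PSMB5 had a median of 0.507 in May GV, 0.957 in July GV, 6.7 in May MII and 8.41 in July MII oocytes. The highest GV ratio was 1.31 and the lowest MII ratio 2.81. POMP over PSMB5 had medians of 1.06, 1.66, 7.78 and 11.9 in the same order, and PSMA7 over PSMA6 of 5.09, 3.33, 11.7 and 10.6, each with no overlap between the stages of a month. PSMD7 over PSMD8 had medians of 0.821, 1.28, 7.35 and 7.62, with an overlap in July alone, where 1 GV ratio reached 4.51 and the lowest MII ratio was 3.73. PSMC4 over PSMC5 overlapped in May, at 0.106 to 1.82 in GV and 0.776 to 4.93 in MII oocytes, and in July did not, at 0.0831 to 0.556 and 0.582 to 3.32.

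Other genes of the pathway were taken from a list of 31, of which 29 were listed in the table. They include subunits and partners of the regulatory particle without a PSM symbol, shuttle receptors and the factors that control proteasome genes. In May 2 of the 29 rose and 2 fell, and in July 1 rose and 3 fell, so that 4 of 29 were called in each month, a share near the 11.8% and 11.5% of all genes. ADRM1, a ubiquitin receptor of the regulatory particle, fell from a mean of 20.6 ± 14.1 to 3.55 ± 2.03 FPKM in May and from 21.1 ± 10.3 to 2.82 ± 1.72 in July, with log2 changes of -2.07 ± 0.45 (limma adjusted p = 0.0057) and -2.55 ± 0.40 (adjusted p = 0.000476). ZFAND2A, a stress-induced proteasome partner, fell in both months as well (-1.69 and -1.63), and its relative ZFAND2B in July (-1.07). AKIRIN2, which carries proteasomes into the nucleus, rose in May (1.08) and gave 0.84 in July. PITHD1 rose in May (1.27) and gave 0.70 in July. NGLY1, which processes the transcription factor NFE2L1 that drives proteasome genes, rose in July (1.15) and gave 0.90 in May. UBB, which encodes ubiquitin, was not called, with means of 4860 to 5990 FPKM over the 4 groups.

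No member differed by season under the call. Between July and May GV oocytes 0 of 46 were called by limma, against 0.0315% of all genes, and 2 had an unadjusted p under 0.05 against 1.55% of all genes. In MII oocytes 0 of 46 were called against 0.042%, and 2 had an unadjusted p under 0.05 against 2.11%. Both all-gene shares of p under 0.05 lay below the level that chance alone gives on average. This fit may thus have been cautious between the seasons, and the cause was not tested. With its own test and fold changes, at the same p and fold thresholds, the study called more genes by season at both stages. The fold here was taken on log2(FPKM + 1), which shrinks changes of low genes, so the counts are not alike. The adjusted p was under 0.05 for none of the 9526 genes in either comparison, and no member had separate May and July libraries, against 0.178% of all genes in each comparison. The members' median log2 difference was 0.00 in GV and -0.09 in MII oocytes, with 24 and 15 of 46 positive. Among members with a mean of at least 1 FPKM, the 95% confidence interval on the log2(FPKM + 1) scale lay within 2-fold for 29 of 37 in GV and for 29 of 35 in MII oocytes, and for the others a 2-fold difference was within the interval. Lower members can hardly leave that range, since the added 1 FPKM compresses them, and are not counted.

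The 4 smallest season p values were each of modest size. In GV oocytes PSMG1 was higher in July at 9.36 ± 0.877 against 6.64 ± 1.52 FPKM (log2 0.46 ± 0.19, p = 0.0274, exact permutation p = 0.00433), and PSMB5 was lower at 28.9 ± 9.57 against 46.3 ± 15.1 (-0.66 ± 0.29, p = 0.0388, exact permutation p = 0.0433). In MII oocytes PSMD7 was lower in July at 12 ± 4.41 against 18.4 ± 5.43 FPKM (-0.59 ± 0.25, p = 0.0376, exact permutation p = 0.0455) and PSMA7 at 133 ± 24.1 against 168 ± 26.5 (-0.34 ± 0.16, p = 0.0482, exact permutation p = 0.0411). All 4 had a limma adjusted p of 1. Over the alternatives tried, single libraries left out among them, each passed above 0.05: the p of PSMG1 ran from 0.0077 to 0.138, of PSMB5 from 0.0149 to 0.107, of PSMD7 from 0.00609 to 0.204 and of PSMA7 from 0.0193 to 0.414. PSMB5 had a like difference in MII oocytes, at means of 5.15 ± 2.99 in July and 8.23 ± 2.92 FPKM in May (-0.67), without passing the unadjusted p.

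**Figure D5:**
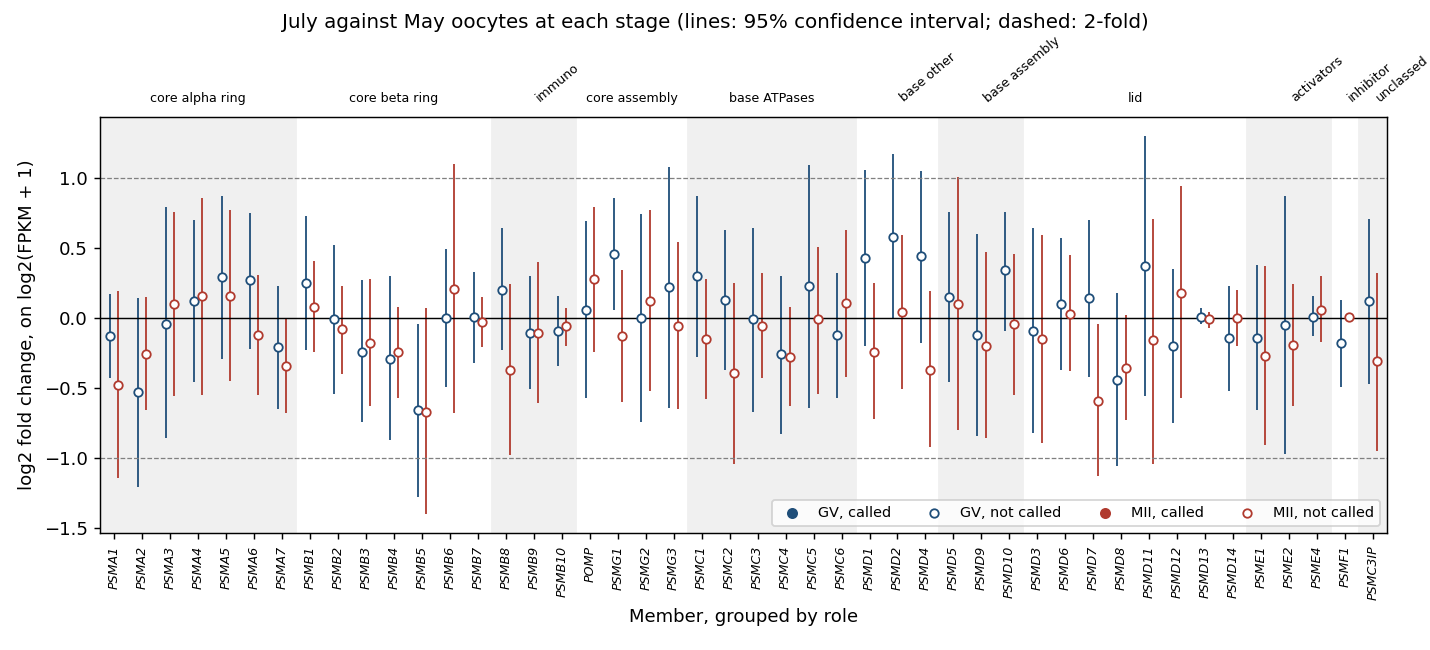
Log2 fold change of July against May for each member, on the log2(FPKM + 1) scale, in GV and in MII oocytes, with 95% confidence intervals; no point was called. The estimates lie between -0.67 and 0.58, inside the dashed lines of 2-fold.

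The change from GV to MII did not differ between the seasons by the call for any of the 46 members (0.21% of all genes were called, by limma), and 2 had an unadjusted p under 0.05 against 1.8% of all genes. PSMD4 gave -0.80 ± 0.39 (limma p of 0.0483) and PSMG1 -0.59 ± 0.28 (limma p of 0.046), July minus May on the log2 scale, each with an adjusted p of 1. The difference for PSMD7, called in May alone, was -0.72 ± 0.36 (limma p of 0.0583), and the members called in a single month were thus not shown to differ between months.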

How the data were processed

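RNA of bovine GV and MII oocytes was sequenced in 24 libraries. Per the labels and the study's methods, the authors checked reads with FastQC, aligned them with STAR 2.5.3a to the UMD3.1 bovine genome (UMD3.1.1 in the methods), quantified genes in Partek and deposited 1 table of FPKM values. Its columns have a common total and a lowest value of 0.01, so counts and counting error were not at hand, and depth was estimated from the spacing of low values: 99.4% of 14124 values lay within 0.1 step of a whole multiple (20% by chance). The Partek test of the study was not used here.

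The 46 members, their roles and the pathway list were chosen with earlier results of these data known. Some genes of the pathway list are counted but not reported by name here. Members with a call (up to 2 in each direction per class), the catalytic and core assembly members, and members with an unadjusted p under 0.05 between seasons were to be given in most detail. Genes over 0.1 FPKM in at least 1 library (9526) were fitted on log2(FPKM + 1) with limma 3.58.1 (R 4.3.3, eBayes with trend), 1 comparison at a time, and p-values were adjusted by Benjamini-Hochberg over all genes. The pseudocount understates changes of low genes. A call needed an unadjusted p under 0.05 and over 2-fold. These thresholds, and the mapping rates by which libraries were named low-mapping, came from the study. Single values were also compared by two-sided exact permutation of libraries. Tests and the depth estimate were checked on simulated data. Because 29 symbols stand at 2 loci, they were kept as 2 entries. Alternatives covered the pseudocount, filter, scaling, pooled or robust spread, call rule, replicate block, low-mapping libraries and each library left out. Leaving out May GV 3 as well was chosen after seeing the data. Figures and summaries used Python 3.11.15, numpy 2.4.6, pandas 2.3.3 and matplotlib 3.10.9. The p-values measure the spread between libraries.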

Additional observations from a re-analysis of the deposited data

Results flagged for a closer look

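Among 104 sets of 6 libraries (22 members and 4 class sums in 4 groups), 14 held a library far from the other 5 by Dixon's test, which chance gives in about 1 of 20 sets. In 9 of the 14 it was July GV 2, in 4 May MII 6 and in 1 July MII 3. In July GV 2, POMP stood at 23.1 FPKM (others 45.8 to 62.5), PSMB6 at 16.2 (28.4 to 38.2) and PSMB7 at 1.19 (1.74 to 2.04), below the rest of the group. In the same library PSMA7 at 166 FPKM (others 90.2 to 103), PSMC3IP at 11.7 (2.81 to 4.96), PSMD4 at 7.13 (2.77 to 3.74) and PSME2 at 9.41 (1.29 to 2.63) lay above it. Its regulatory particle sum was 108 FPKM (others 56.9 to 66.9) and its sum of activators and inhibitor 17.2 (7.93 to 11.2).

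May MII 6 had the lowest PSMB6, at 2.34 FPKM (others 13.4 to 22.3), and the highest PSMB8 at 2.88 (0.0455 to 0.272), PSME2 at 1.79 (0.217 to 0.455) and sum of activators and inhibitor at 10.6 (2.47 to 4.77). July MII 3 had the highest PSMB8 of its group at 0.298 FPKM (others 0.01 to 0.0692).

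The change from GV to MII differed between July and May at an unadjusted p under 0.05 for PSMD4 (-0.80 on the log2 scale) and PSMG1 (-0.59), and neither passed the adjusted p by limma.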

How the results depend on the processing

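The values are shares of a common total, and members under about 1 FPKM are limited by the pseudocount and by shallow libraries. Of the calls between GV and MII oocytes, 8 of 13 in May and 8 of 14 in July held under every alternative tried, and no called member changed sign. With no pseudocount 20 members were called in May and 23 in July, 1 (PSMB8) between the seasons in MII oocytes and 1 (PSMD4) in the difference between seasons, which log2(FPKM + 0.1) also gave for 1 (PSMD4). With log2(FPKM + 0.1) the counts were 19 in May and 21 in July. An adjusted p under 0.05 at any fold held for 23 members in July. With 1 library left out, 12 to 14 were called in May, 12 to 17 in July and 0 between seasons in each stage. The shares of all genes called with the other pseudocounts or with libraries left out are not given here. These counts therefore show only how the calls move, and are no result about the members against other genes. Quantile normalization ended the calls of PSMB6 (-0.92), PSMC2 (-0.89), PSMD10 (-0.96) and PSME1 (-0.97) in May and of PSMA6 (-0.94), PSMB7 (-0.82), PSMC3IP (-0.74) and PSME1 (-0.97) in July. Changes near 0 that turned sign were PSMB8 in May, to -0.01 with log2(FPKM + 0.1), -0.25 without the 3 low-mapping libraries and -0.27 also without May GV 3 (-0.19 to 0.21 with 1 library left out), PSMB9 in May, to 0.10 by quantile normalization (-0.12 to 0.08), PSMB9 in July, to 0.17 by quantile normalization and 0.03 by median-of-ratios scaling (-0.14 to 0.11), and PSMD1 in July, to 0.03 with either other pseudocount, 0.23 by quantile normalization, 0.08 by median-of-ratios scaling and 0.25 without the low-mapping libraries (-0.15 to 0.25). The regulatory particle sum in July, MII minus GV, was -23.9 FPKM as deposited and -8.02 under quantile normalization. The cause of these shifts was not tested. With the replicate block, 13 members were called in May, 14 in July and 0 between seasons, and no count changed. The labels do not say what equal numbers share, and libraries of 1 number correlated at -0.441 to 0.764 over the group pairs. Between May MII and July MII, 4 of 6 libraries correlated best with the library of their own number. The count was 3 between July GV and July MII, 2 between May GV and May MII and 0 between May GV and July GV. Pairing of some libraries is thus possible, and the main fits did not use the numbers.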
